A study of Homo sapiens with 4 samples.

Results

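A set of 9 genes that restrain mTORC1 was followed across 4 arrays: DDIT4, the sestrin genes SESN1, SESN2 and SESN3, the TSC complex genes TSC1 and TSC2, the GATOR1 genes NPRL2 and NPRL3, and DEPTOR. They were found by gene symbol in the probe annotation, which gave 1 probe set for each of the 9 members, out of 33252 probe sets on the array and 18417 genes with a value. The arrays carried RNA from U266 cells given 15 µM atovaquone or vehicle (DMSO) for 2 h, and from K562 cells given 20 µM atovaquone or vehicle (DMSO) for 5 h. U266 is an established multiple myeloma line and K562 an established chronic myeloid leukaemia line, and both were grown in medium with serum. Atovaquone is an antimalarial drug that blocks complex III of the mitochondrial respiratory chain. Each group had 1 array, so no difference has a replicate check, no test was run and no p-value is given. Every ratio below describes 1 pair of arrays, and the dose and the time differed between the lines.

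mTORC1 is a protein kinase complex on the lysosome that drives protein synthesis and growth when amino acids, growth factors and energy are sufficient. Growth signals reach it through the small GTPase RHEB, which the TSC complex switches off, and amino acids reach it through the Rag GTPases, which GATOR1 switches off. DDIT4 (also called REDD1) acts on the TSC branch and sestrins act on the GATOR branch. DDIT4 and SESN2 are known as genes that stressed cells induce through ATF4 and other transcription factors. DEPTOR differs from DDIT4 and the sestrins in binding mTOR itself.

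DDIT4 and SESN2 were the members with large ratios, and the promoter sequence before each start is shown here beside that of TSC2. TSC2 had a ratio near 0, as did other members such as SESN1 and NPRL2. Of the 11 member windows, the TSC2 window shown is the only 1 that holds TGATGNAA or an E-box, motifs described below. It therefore does not stand for the members with ratios near 0. The windows are the 250 bases before the annotated start in RefSeq, build GRCh38.p14, all on the plus strand, at chr10:72273674-72273923 for DDIT4, chr1:28259268-28259517 for SESN2 and chr16:2047735-2047984 for the first of the TSC2 starts. Capitals mark matches to the 4 motifs searched on both strands.
DDIT4: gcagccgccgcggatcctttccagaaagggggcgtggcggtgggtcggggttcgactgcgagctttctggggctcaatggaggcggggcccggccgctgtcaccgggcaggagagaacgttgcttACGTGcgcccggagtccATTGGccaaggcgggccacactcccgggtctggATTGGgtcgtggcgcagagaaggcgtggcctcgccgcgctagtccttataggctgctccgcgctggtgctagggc
SESN2: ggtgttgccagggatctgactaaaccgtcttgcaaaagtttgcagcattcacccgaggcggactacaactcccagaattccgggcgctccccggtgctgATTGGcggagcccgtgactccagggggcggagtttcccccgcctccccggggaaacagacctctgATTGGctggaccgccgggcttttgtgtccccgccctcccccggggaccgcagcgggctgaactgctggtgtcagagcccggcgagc
TSC2: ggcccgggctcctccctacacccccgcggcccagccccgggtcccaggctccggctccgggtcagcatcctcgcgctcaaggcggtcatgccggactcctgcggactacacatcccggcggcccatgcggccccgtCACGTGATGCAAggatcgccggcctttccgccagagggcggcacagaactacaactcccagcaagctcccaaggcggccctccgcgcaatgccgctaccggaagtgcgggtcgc

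The motifs were TGATGNAA, the core of the element bound by ATF4 with C/EBP proteins, ACGTG, the core of the hypoxia response element, CACGTG, the E-box, which holds an ACGTG on each strand, and CCAAT, whose reverse complement is ATTGG. The CCAAT motif was chosen after the sequences had been seen. DDIT4 had an ACGTG at −125 to −121 from the start and a CCAAT box on the minus strand at −108 to −104 and again at −75 to −71. SESN2 had CCAAT boxes on the minus strand at −151 to −147 and at −86 to −82, and no match to the other motifs in this window. CCAAT boxes were not limited to these genes: 4 of the 8 members with a window had one, in 5 of the 11 member windows. Among these members were NPRL2, at −13 to −9, and SESN1, before 2 of its starts. The ratios of NPRL2 and SESN1 were near 0. Of all 35116 windows in the table, 32% held at least 1 CCAAT box and 9.53% held 2 or more, and 18.5% held ACGTG. TGATGNAA occurred in 3.14% of windows. Among the 8 members with a window it was found for TSC2 alone, before the first of its starts, at −110 to −103. There it overlapped an E-box at −114 to −109, and 6.34% of all windows held an E-box. The other TSC2 window had no match to any motif. The matches are a description of the letters in these windows.

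**Figure D1:**
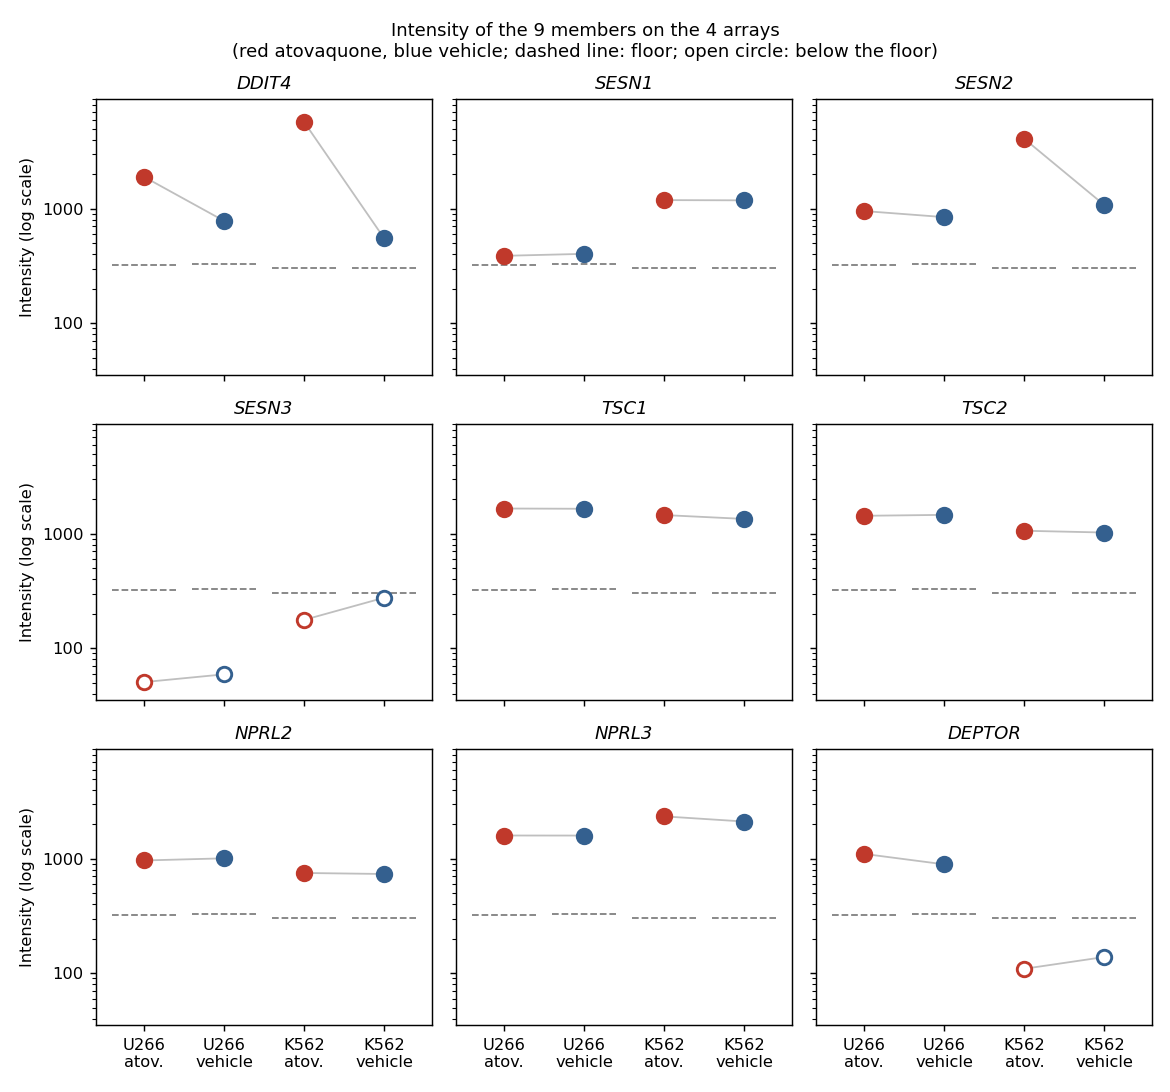
Intensity of each member (vertical axis, log scale) on the 4 arrays (horizontal axis), in red for atovaquone and blue for vehicle, with a dashed line at each array's floor and open circles below it. DDIT4 stood apart on both atovaquone arrays and SESN2 on the K562 atovaquone array at 4076, while SESN3 lay below the floor on every array and DEPTOR on both K562 arrays.

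The deposited values were probe set intensities on a linear scale, with array medians between 314 and 340. Each array's floor, the 40th percentile of its annotated probe sets, lay between 305 and 331, and a gene counted as measured in a comparison when both arrays reached it. Log2 ratios of atovaquone to vehicle were centred on the median of the measured probe sets. Rank correlation between the atovaquone and vehicle arrays across probe sets was 0.989 in U266 and 0.990 in K562. The middle 95% of gene ratios ran from −0.28 to 0.34 in U266 over 10731 measured genes and from −0.42 to 0.48 in K562 over 10756. These ranges hold the spread between genes, and the spread between cultures cannot be given. Of 12 plasma cell markers with a value, 10 were above the floor on each U266 array, against 5 on the K562 atovaquone array and 6 on the K562 vehicle array. Of 12 erythroid and megakaryocytic markers, 7 were above it on each U266 array, against all 12 on each K562 array. Because the floor is the 40th percentile, most annotated probe sets pass it by construction. Of those 7, HBE1, GFI1B and HBZ were near the floor in U266, at 357, 361 and 370 with vehicle. Of 6 plasma cell markers measured on both vehicle arrays, 5 were higher in U266. The other, CD38, was 396 in U266 and 668 in K562. The summed intensity of those erythroid markers was 35554 in K562 with atovaquone and 34029 with vehicle, and that of the plasma cell markers in U266 was 41538 with atovaquone and 39208 with vehicle. Of 11 markers of other cell types, 4 were above the floor on each U266 array and 7 on each K562 array. The part of these small shifts in the ratios below was not tested, and in RNA from whole cultures fewer cells of a type and less RNA per cell cannot be told apart.

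In U266, DDIT4 was the member that differed most with atovaquone, 2.44-fold higher than with vehicle. The other measured members ran from 1.04-fold lower for NPRL2 to 1.24-fold higher for DEPTOR. Of the 9 members, 8 were measured, 1 was higher by 1.5-fold or more and 0 were lower by that much. Among all measured genes, 0.857% were higher and 0.0932% lower by 1.5-fold or more. The median log2 ratio of the 8 was 0.014, against −0.00012 for all measured genes. At 2-fold, DDIT4 was again the 1 member counted, beside 0.326% of all genes.

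In K562, DDIT4 was 10.4-fold and SESN2 3.80-fold higher with atovaquone, and the other members that could be measured were 1.01-fold to 1.11-fold higher. Of the 9 members, 7 were measured, 2 exceeded 2-fold, and 0 were lower by 1.5-fold or more, beside 0.26% of all measured genes at least 2-fold higher, 1.42% at least 1.5-fold higher and 0.697% at least 1.5-fold lower. The median log2 ratio of the 7 was 0.12, against −0.0057 for all measured genes. All 7 lay above 0, as did 5254 of the 10756 measured genes, and the lowest of the 7 was SESN1 at 0.011.

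**Figure D2:**
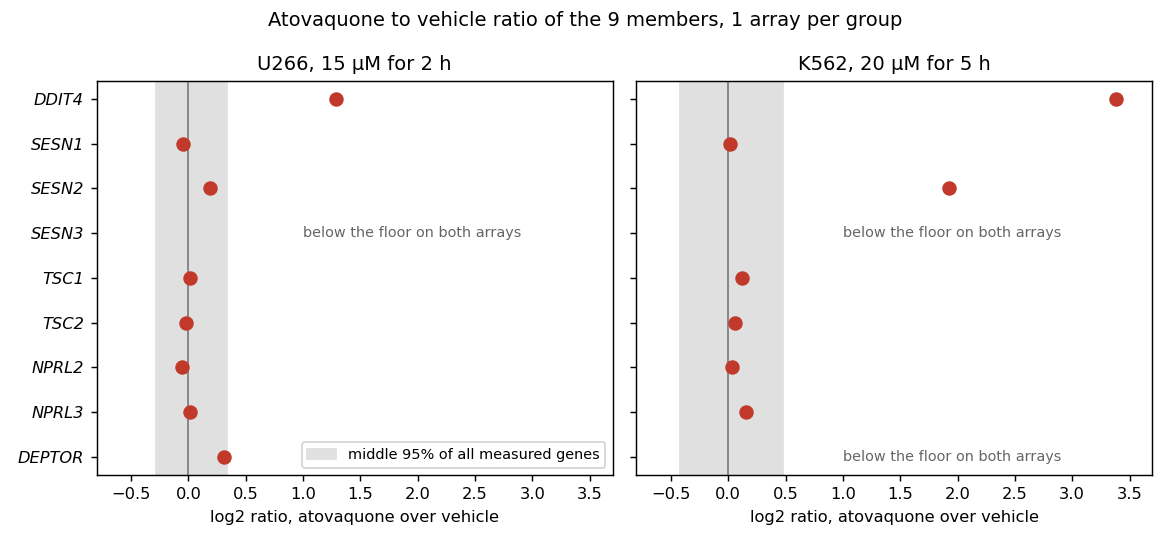
Log2 ratio of atovaquone to vehicle (horizontal axis) for each member (vertical axis) in U266 and in K562, 1 array per group, with the middle 95% of all measured genes shaded. DDIT4 at 1.29 in U266 and 3.38 in K562 and SESN2 at 1.93 in K562 lie outside the shaded range, and the members of the TSC complex and GATOR1 lie inside it in both lines.

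DDIT4 encodes a small, short-lived protein that frees the TSC complex from an inhibitory partner and so lowers mTORC1 activity in hypoxia, energy stress and glucocorticoid exposure. Its intensity was 1901 with atovaquone and 784 with vehicle in U266. In K562 it was 5728 with atovaquone and 552 with vehicle. Both atovaquone arrays were above both vehicle arrays, with the K562 atovaquone array highest and the K562 vehicle array lowest. The log2 ratio was 1.29 in U266, rank 24 from the highest among 10731 measured genes. In K562 it was 3.38, rank 1 of 10756. In vehicle the level in U266 was 1.44-fold that in K562, a log2 difference of 0.53 that lies inside the middle 95% of genes between the lines, from −1.51 to 1.68. Under a floor raised to percentile 60, the K562 vehicle value of DDIT4 fell under it and the ratio became a lower bound of 3.15.

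DDIT4 was 1 of 3 genes at least 2-fold higher with atovaquone in both lines, among 9222 genes measured on all 4 arrays. The others were DDIT3, the gene of the stress-induced factor CHOP, and CTH, whose enzyme makes cysteine from cystathionine. At 1.5-fold the number was 8, and SESN2 was not among them. Genes below the floor on any array are outside these counts and the distances below. ATF3 is 1 of those, with lower bounds of 5.95-fold in U266 and 3.57-fold in K562. No gene was at least 1.5-fold lower in both lines, a count of 0 of 9222. By Euclidean distance over the U266 and K562 log2 ratios, which rest on 4 arrays, the genes most like DDIT4 were DDIT3 at a distance of 1.29 and CTH at 1.45. DDIT3 had log2 ratios of 1.22 in U266 and 2.09 in K562, and CTH 1.11 and 1.94. SESN2 followed at 1.82, then PCK2, a mitochondrial enzyme of gluconeogenesis, at 2.11 and TRIB3, a pseudokinase that inhibits AKT, at 2.14. Even the closest of the genes measured on all 4 arrays was thus over 1 log2 unit away. That follows from the K562 ratios, where DDIT4 was highest at 3.38 and DDIT3 next at 2.09.

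SESN2 encodes sestrin 2, which binds leucine and, when leucine is scarce, holds back GATOR2, the complex that restrains GATOR1. Its intensity was 955 with atovaquone and 845 with vehicle in U266. In K562 it was 4076 with atovaquone and 1076 with vehicle. The K562 atovaquone array stood alone, and the other 3 arrays lay within 845 to 1076. The log2 ratio was 0.19 in U266, rank 884 of 10731 and inside the middle 95% of genes, and 1.93 in K562, rank 4 of 10756. The K562 genes above it were DDIT4, DDIT3 and CTH.

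The 5 genes nearest to SESN2 over both ratios had K562 ratios from 1.46 to 1.72 and U266 ratios between −0.07 and 0.23. PCK2 was closest at a distance of 0.29, with intensities of 2112 with atovaquone and 654 with vehicle in K562 and of 1238 with atovaquone and 1239 with vehicle in U266. TRIB3 followed at 0.33, ASNS, which encodes asparagine synthetase, at 0.43, HERPUD1, a gene of protein degradation at the endoplasmic reticulum, at 0.45, and CCDC71L at 0.47. SESN2 had thus several close neighbours in this plane. The nearest gene to DDIT4 was 1.29 away, a distance that restates its place as the highest K562 ratio.

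**Figure D3:**
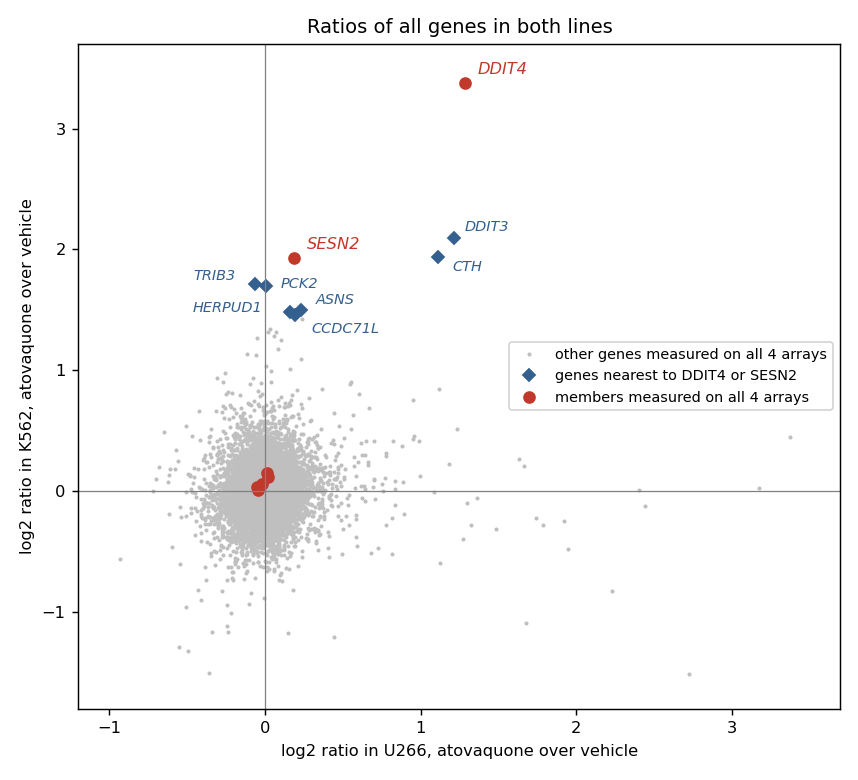
Log2 ratio of atovaquone to vehicle in U266 (horizontal axis) and in K562 (vertical axis) for the 9222 genes measured on all 4 arrays, with members in red and the genes nearest to DDIT4 or SESN2 in blue. DDIT4 lies alone at 1.29 and 3.38 with DDIT3 and CTH below it, SESN2 lies among PCK2, TRIB3, ASNS, HERPUD1 and CCDC71L, and the other members lie in the central cloud.

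The other sestrin genes did not follow SESN2. SESN1, which encodes a sestrin that also binds GATOR2, had an intensity of 388 with atovaquone and 404 with vehicle in U266. The K562 arrays gave 1190 with atovaquone and 1185 with vehicle. Its level separated the lines and not the treatments, with log2 ratios of −0.05 in U266 and 0.011 in K562. Between vehicle arrays it was 2.88-fold lower in U266 than in K562, a log2 difference of −1.53. SESN1 was the single member of 7 measured on both vehicle arrays that was lower in U266 by 2-fold or more, beside 6.97% of all 9483 genes measured there. A level 2-fold or more higher in U266 was found for 0 of the 7, beside 7.97%. DEPTOR, below the floor in K562, was outside the 7, with a bound of at least 2.98-fold higher in U266. Under a floor at percentile 60 the U266 values of SESN1 lay below the floor, and the vehicle difference became a bound of at least 1.72-fold lower.

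SESN3, a sestrin induced by FOXO factors, was below the floor on all 4 arrays and has no ratio. Its intensity was 50.6 with atovaquone and 59.2 with vehicle in U266. On the K562 arrays it was 177 with atovaquone and 276 with vehicle. The U266 arrays read lower than the K562 arrays, and in K562 the atovaquone value was the lower one. The K562 values reached a floor set at percentile 20, where the log2 ratio was −0.63, a 1.55-fold lower level with atovaquone.

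TSC1 and TSC2 encode hamartin and tuberin, which together switch off RHEB, and both were close to the vehicle level in either line. TSC1 had an intensity of 1660 with atovaquone and 1652 with vehicle in U266. The K562 values were 1456 with atovaquone and 1347 with vehicle. TSC2 had 1434 with atovaquone and 1462 with vehicle in U266, and 1062 with atovaquone and 1024 with vehicle in K562. The log2 ratios of TSC1 were 0.02 and 0.12 in U266 and K562, and those of TSC2 −0.02 and 0.06. Of all measured genes, 11.6% had a ratio smaller in size than that of TSC1 or of TSC2 in U266, so both were among the genes closest to 0. Both genes were somewhat higher in U266 than in K562 on the vehicle arrays, by 1.25-fold for TSC1 and 1.45-fold for TSC2.

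NPRL2 and NPRL3 encode subunits of GATOR1, which switches off the Rag GTPases when amino acids are scarce. NPRL2 had an intensity of 965 with atovaquone and 1008 with vehicle in U266. The K562 values were 751 with atovaquone and 735 with vehicle. NPRL3 had 1594 with atovaquone and 1593 with vehicle in U266, and 2342 with atovaquone and 2112 with vehicle in K562. Log2 ratios were −0.05 and 0.03 for NPRL2 in U266 and K562, and 0.011 and 0.15 for NPRL3. The subunits ran in opposite order between the lines: in vehicle NPRL2 was 1.39-fold higher in U266 than in K562 and NPRL3 1.30-fold lower.

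DEPTOR binds mTOR and inhibits it in both of its complexes, and it is known for high expression in some multiple myelomas. Its intensity was 1101 with atovaquone and 893 with vehicle in U266. In K562 it was 109 with atovaquone and 138.5 with vehicle, below the floor on both arrays, so no K562 ratio is given. Both U266 arrays were above both K562 arrays. In vehicle DEPTOR was at least 2.98-fold higher in U266 than in K562, a bound set by the K562 floor and not by a measured K562 level. A floor at percentile 20 gave a bound of at least 6.12-fold, and one at percentile 60 a bound of at least 1.42-fold. The log2 ratio in U266 was 0.31, rank 303 of 10731, just inside the middle 95% of genes and, after DDIT4, the largest among the members in that line.

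Genes around the 9 members in the pathway were taken from 6 lists of 92 genes, of which 81 had a probe set with 1 symbol. Over all lists, 72 were measured in U266, with a median log2 ratio of 0.0001, 1 of them at least 1.5-fold higher and 0 lower. In K562, 73 were measured, with a median of 0.0044, 4 of them at least 1.5-fold higher and 0 lower. ATF3 was outside these counts, with log2 lower bounds of 2.57 in U266 and 1.84 in K562. The shares of all genes past these folds are those given above.

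Core subunits of the mTOR complexes had medians of 0.05 in U266 and −0.07 in K562, with 0 of 9 measured genes past 1.5-fold in either line. The lowest in U266 were AKT1S1, which encodes the mTORC1 inhibitor PRAS40, at −0.40 and TELO2, a chaperone of mTOR-like kinases, at −0.27, and the highest were TTI2, a partner of TELO2, at 0.14 and RICTOR, the scaffold of mTORC2, at 0.12. In K562 the lowest were RPTOR, the scaffold of mTORC1, at −0.28 and TELO2 at −0.12, and the highest TTI2 at 0.25 and MLST8, a subunit of both complexes, at 0.22. AKT1S1 in U266 lay outside the middle 95% of genes, with 698 with atovaquone and 927 with vehicle.

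The remaining TSC, GATOR and KICSTOR genes and amino acid sensors had medians of −0.0067 in U266 over 12 genes and 0.02 in K562 over 14, with 0 past 1.5-fold. ITFG2, a subunit of the KICSTOR complex that holds GATOR1 on the lysosome, had the highest K562 ratio at 0.53, outside the middle 95% of genes, and the lowest in U266 at −0.17. KICS2, another KICSTOR subunit, stood at −0.12 in U266 and 0.26 in K562. In U266 the highest were SAMTOR, a sensor of S-adenosylmethionine, at 0.22 and WDR59, a GATOR2 subunit, at 0.08. In K562 the lowest were CASTOR1, an arginine sensor, at −0.12 and FLCN, an activator of the Rag GTPases, at −0.10.

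On the activating side, Rag, Ragulator and RHEB genes had medians of 0.07 in U266 over 11 genes and 0.04 in K562 over 9, with 0 past 1.5-fold. RRAGB, which encodes a Rag GTPase, was the highest in each line, at 0.47 in U266, outside the middle 95% of genes, and 0.32 in K562. Its intensity was 659 with atovaquone and 480 with vehicle in U266, and 518 with atovaquone and 416 with vehicle in K562. SLC38A9, a lysosomal arginine transporter, stood at 0.16 in U266 and RHEB at 0.14 in K562. The lowest in U266 were RRAGD at −0.02 and RHEBL1 at −0.01, and in K562 RRAGA at −0.23 and LAMTOR4, a Ragulator subunit, at −0.19.

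Upstream kinase and phosphatase genes had medians of −0.04 in U266 and −0.03 in K562, over 15 genes in each line and with 0 past 1.5-fold. PRKAB2, a regulatory subunit of the energy sensor AMPK, stood at −0.36 in U266, outside the middle 95% of genes, and 0.45 in K562, and PRKAB1, which encodes the alternative subunit, at 0.0136 and −0.38. PIK3R1, the regulatory subunit of phosphoinositide 3-kinase, stood at −0.27 in U266, and its catalytic partner PIK3CB at −0.21 in K562. The highest in U266 were the AMPK subunit gene PRKAG1 and PIK3CD, both at 0.07, and in K562 CAMKK2, a kinase that activates AMPK, stood at 0.19.

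Substrates and outputs of mTORC1 had medians of −0.04 in U266 over 13 genes and 0.07 in K562 over 15. PDCD4, an inhibitor of translation initiation that is degraded when mTORC1 is active, was the 1 gene past 1.5-fold, in K562, where it was 968 with atovaquone and 590 with vehicle, a log2 ratio of 0.72. EIF4EBP1, which encodes the translation repressor 4E-BP1, followed at 0.52 in K562, also outside the middle 95% of genes, with 2123 with atovaquone and 1487 with vehicle. In U266 PDCD4 stood at −0.04 and EIF4EBP1 at −0.02. Under a floor at percentile 60 PDCD4 was no longer measured in K562, and 0 genes of the list were past 1.5-fold. The cap-binding protein gene EIF4E and MAF1, a repressor of RNA polymerase III, were the lowest in K562 at −0.19 and −0.08. In U266 the lowest were ULK1, the kinase that starts autophagy, at −0.16 and LARP1, which binds mRNAs of the translation machinery, at −0.10, and the highest were LPIN1, a phosphatidate phosphatase, at 0.22 and EIF4B, a translation initiation factor, at 0.11.

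**Figure D4:**
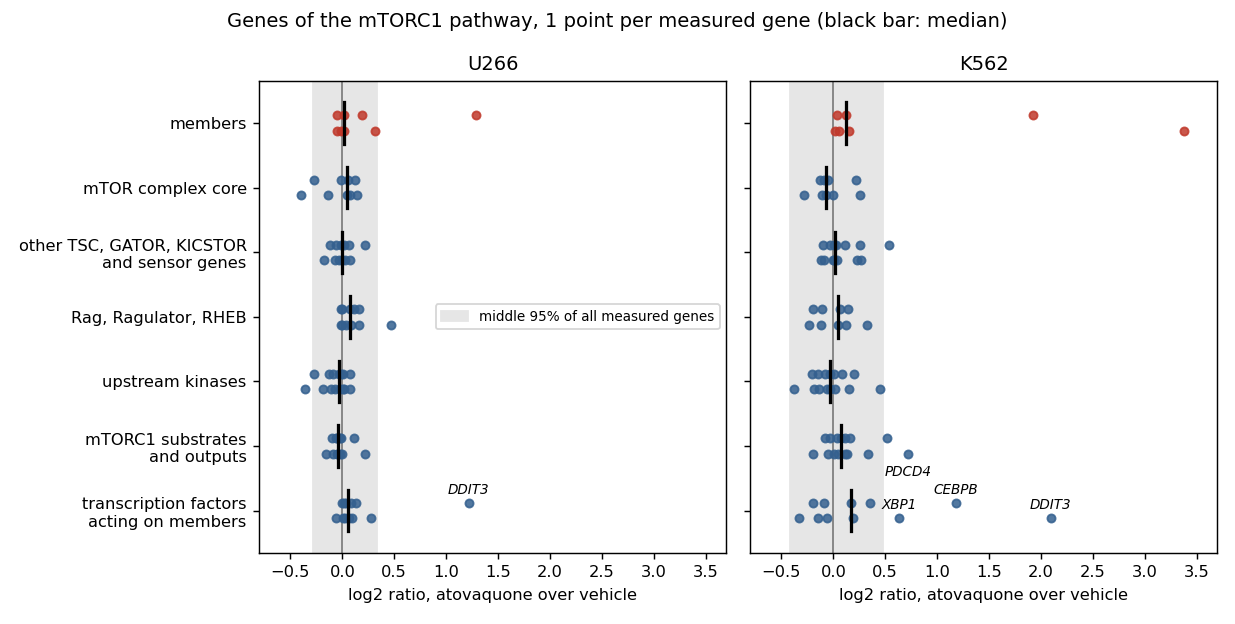
Log2 ratio of atovaquone to vehicle (horizontal axis) for each measured gene of the members and of 6 lists around them (vertical axis) in U266 and K562, with the list median as a black bar and the middle 95% of all measured genes shaded. Of the plotted genes, DDIT4 and DDIT3 are past 1 log2 unit in U266, and DDIT4, SESN2, DDIT3 and CEBPB in K562. ATF3 has lower bounds only, 2.57 in U266 and 1.84 in K562, and is not plotted.

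Genes of transcription factors known to act on DDIT4 or the sestrin genes had the highest K562 list median of the 6, at 0.17 over 11 genes, with 3 at least 1.5-fold higher and 0 lower. In U266 the median was 0.05 over 12 genes, with 1 at least 1.5-fold higher. The lists were chosen with earlier results of these data known, so the order of their medians is not independent of that choice. DDIT3 had an intensity of 2661 with atovaquone and 1153 with vehicle in U266, and 3331 with atovaquone and 783 with vehicle in K562. CEBPB, a partner of ATF4 on DNA, stood at 0.09 in U266 and 1.18 in K562, and XBP1, a regulator of the secretory pathway, at 0.13 and 0.63. ATF3, a stress factor downstream of ATF4, was below the floor on both vehicle arrays and was at least 5.95-fold higher with atovaquone in U266 and at least 3.57-fold in K562. HIF1A, the hypoxia factor, stood at 0.28 in U266 and −0.20 in K562, EPAS1, a related factor, at −0.06 and 0.19, FOXO1, a forkhead factor, at −0.00012 in U266, and TP73, a factor of development and cell death, at 0.02 and −0.33. ATF4 itself, which the naming rule did not pick and was added after its value was seen, stood at 0.10 in U266 and 0.36 in K562. These are mRNA levels, and the activity of the factors was not measured.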

How the data were processed

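Total RNA of 4 samples was turned into biotin-labelled cRNA and hybridised to Affymetrix gene arrays, per the labels' protocols. The authors deposited 1 processed intensity per probe set and array on a linear scale. How they were summarised, background-corrected and normalised is not given in the sources used here, so a scaling difference left between arrays would enter every ratio. Of the probe sets, 21214 were in the annotation and 19460 had 1 gene symbol. Where several probe sets had the same symbol, the brightest stood for the gene. Intensities were put on the log2 scale, raised to a floor at the 40th percentile of annotated probe sets, and differences were centred on the median of measured probe sets. A gene under the floor on 1 array has a bound and on both arrays no ratio. Raising values to a floor understates changes of dim genes.

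There was 1 array per group, which limits the precision, so no test was run. Genes were counted at 1.5-fold and 2-fold. The members and the lists were chosen with earlier results of these data known. The text names every member. From each list it names genes past 1.5-fold and the 2 highest and 2 lowest ratios per line, and for DDIT4 and SESN2 the 5 nearest genes. The calculation was tested on simulated data. Alternatives were a floor at the 20th or 60th percentile or none, no centring, quantile normalisation, and the mean of all probe sets. SAMTOR was matched through its older symbol BMT2. Promoter windows came from RefSeq (GRCh38.p14), with a window for 8 of 9 members. Work was done in Python 3.11.15 with numpy 2.4.6 and pandas 2.3.3.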

Additional observations from a re-analysis of the deposited data

Results flagged for a closer look

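Of the 9 members, 3 had ratios of opposite sign in the lines, all close to 0 and inside the middle 95% of genes, and the difference between lines was not tested with 1 array per group. SESN1 had log2 ratios of −0.048 in U266 and 0.0114 in K562, TSC2 −0.0174 and 0.0566, and NPRL2 −0.0525 and 0.0349.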

How the results depend on the processing

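Without replicates, a member's ratio was compared between settings by the spread of ratios over probe sets. Each member has 1 probe set, so the mean of all probe sets returned its main value by construction. For a member that stayed above the floor, another floor, no floor or no centring only moved its ratio by a shift common to all genes. The ratios of DDIT4 ran from 1.28 to 1.32 in U266 under all 6 alternatives, and those of SESN2 from 0.18 to 0.20 in U266 and from 1.92 to 1.93 in K562. In K562 DDIT4 ran from 3.32 to 3.39, except under a floor at percentile 60, where its vehicle value lay under the floor and left a lower bound of 3.15. By that construction the count of K562 members at least 1.5-fold higher, and that at least 2-fold higher, was 1 there in place of 2. The count of K562 members at least 1.5-fold lower was 1 in place of 0 under a floor at percentile 20 and with no floor, because SESN3 then had a ratio, at −0.63 in both. The median of the other TSC, GATOR and KICSTOR genes in U266 lay on either side of 0, from −0.024 to 0.0021. No ratio of a member at least 1.5-fold different changed sign under any of the 6. No paired analysis was possible because each group has 1 array and the labels give no replicate numbers. The vehicle difference of SESN1 between the lines was −1.53, and at percentile 60 it was a bound of −0.78. For the transcription factor list in U266, the number of genes at least 1.5-fold higher was 2 in place of 1 at percentile 20 and with no floor, and its K562 median was 0.081 in place of 0.17 at percentile 20. The floor limits what can be said of SESN3 in both lines, of DEPTOR in K562 and of SESN1 in U266.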

Other observations

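For genes in general, log2 ratios between the lines in vehicle were wider than those with atovaquone. Their robust standard deviation over probe sets was 0.57 between the vehicle arrays, against 0.12 with atovaquone in U266 and 0.18 in K562. Several genes around the members shared this wider difference between the lines and are given as examples. They were named after their values were seen, and line and vehicle time differed together. Of the list genes, 69 had a measured vehicle ratio. Of these, 6 were higher in U266 than in K562 by 2-fold or more, beside 7.97% of all measured genes. By that much 2 were lower, beside 6.97%: SEH1L at a log2 difference of −1.03 and PRKAB1 at −1.10. RRAGD, GRB10 and EIF4E have bounds only and were outside the 69. RRAGD, which encodes a Rag GTPase, had an intensity of 3594 with atovaquone and 3656 with vehicle in U266, against 172 with atovaquone and 186 with vehicle in K562. The vehicle level was higher in U266 by at least 12.2-fold, and that of RRAGC, which encodes its close relative, by 2.20-fold.

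On the mTORC1 output side, PDCD4 was 5.27-fold higher in U266 in vehicle. GRB10, an adaptor that dampens insulin signalling and is stabilised by mTORC1, was below the floor in U266, at 148 with atovaquone and 160 with vehicle, and was 2933 with atovaquone and 2341 with vehicle in K562. The vehicle level was lower in U266 by at least 6.96-fold. EIF4E was listed under the floor in U266, at 251 with atovaquone and 212 with vehicle, against 2006 with atovaquone and 2299 with vehicle in K562. Since every cell needs the cap-binding protein, how well this 1 probe set reads EIF4E in U266 was not tested.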
